A study of Caenorhabditis elegans with 2 samples.

Results

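Small nucleolar RNA (snoRNA) genes of the nuclear genome of the nematode Caenorhabditis elegans were examined for ChIP-seq peaks of the tagged forkhead transcription factor FKH-10. The members are all genes of biotype snoRNA in the Ensembl annotation of the WBcel235 assembly that lie on nuclear chromosomes, 346 of 46890 nuclear genes. Each gene was extended by 100 bp on both sides, and a gene was scored as bound in a peak list when a peak summit lay inside this window. The genes were short, with a median length of 130 bases and a range of 54 to 344 bases.

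ChIP-seq recovers and sequences the DNA that is attached to a chosen protein. The libraries, 2 biological replicates of 1 group, came from whole late embryos of mixed sex of the strain labelled OP337, which carries the unc119(ed3) allele and an insertion labelled wgIs377 that holds fkh-10 fused to TY1, EGFP and FLAG tags together with unc119 as the rescue gene. The insertion is an added copy of fkh-10, its strain number and its insertion number differ in the label, and the antibody is given as fkh-10, so both samples are named here by their label, eGFP-FKH-10. No library of an untagged strain was analysed here, and the signal of a whole embryo cannot be assigned to a cell type. Peak lists on the ce11 build were used for replicate 1, for replicate 2, for both replicates pooled, and for the optimal list that passed the irreproducible discovery rate threshold, called the thresholded list below. They held 27873, 29978, 7420 and 358 nuclear peaks. The height of a peak is the authors' signal value on an unstated scale, so heights were compared only within a list. The lists give no read counts, so sequencing depth is unknown. The 95% Wilson intervals treat each gene as an independent count and cover counting error only.

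snoRNAs are stable nuclear RNAs that pair with ribosomal RNA and other targets and guide their chemical modification. Box C/D snoRNAs, named after short motifs near their ends, guide methylation of the ribose, and box H/ACA snoRNAs guide the conversion of uridine to pseudouridine. Some snoRNA genes lie inside introns of protein-coding host genes and are processed from the spliced intron, while others have promoters of their own. Genes for tRNAs, which are transcribed by a different RNA polymerase from protein-coding genes, carry their promoter inside the gene as an A box followed by a B box.

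The stretch from 100 bases before the gene to its base 20 is shown for 5 of the genes with the highest thresholded peaks, and for the highest gene with a peak in the pooled list only, because most thresholded summits fell in this upstream stretch. The sequences are those of the RefSeq genome of the same assembly, on the strand of the snoRNA gene, 5′ to 3′, and the last 20 letters belong to the gene. Capitals mark matches to an A box core, TGGCNNAG, and to a B box core, GTTCNANNC, where N is any base. The genes are C51F7.4 (chrV:12303499-12303618, plus strand), C51F7.3 (chrV:12303608-12303727, plus strand), ZK994.7 (chrV:8500479-8500598, plus strand), W03C9.9 (chrII:11960798-11960917, plus strand), F32E10.10 (chrIV:7574022-7574141, plus strand) and M106.6 (chrII:10840217-10840336, plus strand). The first pair of genes are neighbours that share 1 summit. C51F7.3 holds more than 1 match to the B core.
C51F7.4: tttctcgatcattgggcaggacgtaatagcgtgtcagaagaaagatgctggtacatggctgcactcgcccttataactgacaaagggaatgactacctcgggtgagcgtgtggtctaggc
C51F7.3: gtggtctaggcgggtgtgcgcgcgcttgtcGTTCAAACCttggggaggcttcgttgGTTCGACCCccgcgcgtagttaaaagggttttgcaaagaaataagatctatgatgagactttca
ZK994.7: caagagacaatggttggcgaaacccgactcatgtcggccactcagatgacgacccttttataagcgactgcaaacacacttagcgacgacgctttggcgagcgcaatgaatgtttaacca
W03C9.9: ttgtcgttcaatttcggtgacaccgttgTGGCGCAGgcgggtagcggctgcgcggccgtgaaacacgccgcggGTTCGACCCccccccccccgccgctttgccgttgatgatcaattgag
F32E10.10: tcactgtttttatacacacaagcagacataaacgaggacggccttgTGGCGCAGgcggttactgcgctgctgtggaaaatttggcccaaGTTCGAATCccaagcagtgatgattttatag
M106.6: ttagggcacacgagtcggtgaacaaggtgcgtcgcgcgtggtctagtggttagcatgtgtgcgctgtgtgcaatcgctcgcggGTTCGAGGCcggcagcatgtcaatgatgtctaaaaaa

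A further 4 thresholded genes, chosen after their sequences were seen because each holds both cores, are shown to compare the spacing. They are T03F7.8 (chrV:11314158-11314277, plus strand), F55A11.10 (chrV:11782892-11783011, plus strand), Y43F8C.22 (chrV:19643168-19643287, minus strand) and C04G6.12 (chrII:5105212-5105331, minus strand). R166.7 (chrII:10545310-10545429, minus strand) holds both cores as well but had no summit in any of the 4 lists.
T03F7.8: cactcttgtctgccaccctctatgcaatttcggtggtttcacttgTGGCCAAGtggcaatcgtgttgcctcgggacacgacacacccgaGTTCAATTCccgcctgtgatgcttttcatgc
F55A11.10: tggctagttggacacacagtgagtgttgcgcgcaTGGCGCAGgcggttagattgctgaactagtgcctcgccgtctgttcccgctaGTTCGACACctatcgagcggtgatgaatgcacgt
Y43F8C.22: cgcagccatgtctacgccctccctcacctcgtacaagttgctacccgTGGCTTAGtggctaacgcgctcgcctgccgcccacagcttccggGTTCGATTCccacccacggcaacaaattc
C04G6.12: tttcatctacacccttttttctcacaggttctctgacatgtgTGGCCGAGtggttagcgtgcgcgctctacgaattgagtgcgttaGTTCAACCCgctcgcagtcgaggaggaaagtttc
R166.7: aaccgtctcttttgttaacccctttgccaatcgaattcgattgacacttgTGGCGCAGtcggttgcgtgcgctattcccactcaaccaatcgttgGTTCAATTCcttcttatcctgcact

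The first question was how many snoRNA genes had a peak and whether the replicates showed the same genes. In the thresholded list 26 of 346 genes had a summit (7.51%, interval 5.18 to 10.8), against 0.117% of tiles of 330 bp, the median window length, laid over the nuclear genome. The share was 64.3 times that of the tiles. In the pooled list 61 genes had a summit (17.6%, interval 13.98 to 22.0) against 2.43% of tiles. The replicate 1 list marked 81 genes (23.4%, interval 19.3 to 28.2) against 9.02% of tiles, and the replicate 2 list marked 96 genes (27.7%, interval 23.3 to 32.7) against 9.67%. In each list the lower bound for snoRNA genes was above the share of tiles, and the ratio fell from the thresholded list to the relaxed lists of the replicates, where it was 2.60 and 2.87. No test was applied to these shares. No summit of any list was found at 219 genes.

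Both replicate lists had a summit at 53 snoRNA genes (15.3%, interval 11.9 to 19.5), against 1.73% of tiles with a summit of both lists. A further 28 genes had a summit in replicate 1 only and 43 in replicate 2 only. The thresholded list was selected for agreement between the replicates, so its counts are not a separate measure of that agreement. Of the 26 thresholded genes, 25 had a summit in both replicate lists. The exception was ZK265.10, whose nearest replicate 1 summit lay 108 bp from the gene, just outside the window, with a height of 57.6. Of the 61 genes of the pooled list, 47 were in both replicate lists, and 6 genes had summits in both replicate lists but not in the pooled list. The heights of the 53 genes in replicate 1 and replicate 2 had a Spearman rho of 0.66, and those of the 25 thresholded genes a rho of 0.49. These are descriptions across genes that share the same libraries.

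Peaks at snoRNA genes were high within their lists. The median height of the 26 thresholded genes was 56.1 (range 36.6 to 138), against 46.0 over all nuclear peaks of that list, and 16 of these genes had a peak among the 100 highest nuclear peaks and 5 among the 20 highest. The pooled medians were 32.1 for snoRNA genes and 19.2 for all nuclear peaks. They were 11.8 and 9.62 in replicate 1, and 10.6 and 6.80 in replicate 2. When each replicate was taken alone and its list shortened to as many of its strongest peaks as the thresholded list holds, 21 of the 26 thresholded genes had a peak among these in replicate 1, and 21 in replicate 2. The 26 genes were already selected for agreement between the replicates.

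**Figure D1:**
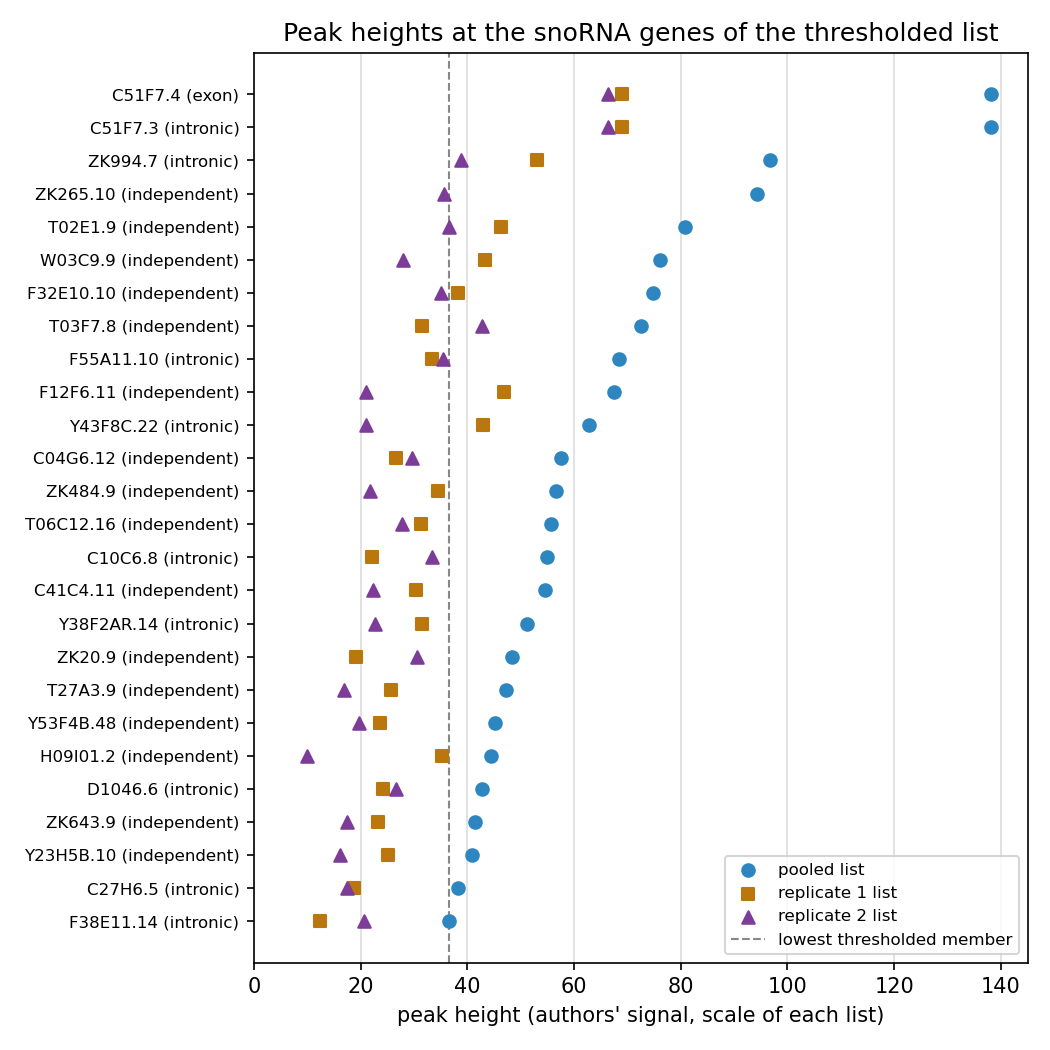
Peak height at each snoRNA gene of the thresholded list (x axis, authors' signal in the scale of each list), with circles for the pooled list, squares for replicate 1 and triangles for replicate 2. The order runs from C51F7.4 and C51F7.3, which share 1 summit with a height of 138, down to F38E11.14 at 36.6 (dashed line), and ZK265.10 has no square because its replicate 1 summit lies outside the window.

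The highest nuclear peak of the whole thresholded list lay at a pair of snoRNA genes. C51F7.3 is inside an intron of frm-7, which encodes a FERM domain protein, and its neighbour C51F7.4 overlaps an exon of the same host. Their shared peak had a height of 138 in the thresholded list, 69.0 in replicate 1 and 66.3 in replicate 2. Its summit, at base 12303637 of chromosome V, was inside C51F7.4 and 71 bp upstream of C51F7.3. ZK994.7, in an intron of the peroxidasin gene pxn-1, followed with 96.7, and with 53.1 and 38.8 in replicates 1 and 2. Peroxidasins are enzymes of the extracellular matrix. ZK265.10, outside protein-coding genes of its strand, had a height of 94.3 and a replicate 2 height of 35.6.

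Most of the next genes were independent, which here means outside every protein-coding gene of the same strand. T02E1.9, antisense to spe-12, a gene needed for sperm activation, had a height of 80.8, with 46.2 in replicate 1 and 36.6 in replicate 2. W03C9.9 had a height of 76.2, with 43.4 and 28.0, and F32E10.10 had 74.7, with 38.2 and 35.0. T03F7.8, antisense to the cuticlin-like gene cutl-18, had 72.6, with 31.4 and 42.8. F55A11.10, in an intron of F55A11.6, had 68.3, with 33.4 and 35.4. Ranks within each list varied, since T03F7.8 was at rank 98 among the nuclear peaks of replicate 1 and at rank 25 in replicate 2, while W03C9.9 was at ranks 29 and 109. The C51F7 pair was at ranks 2 and 5.

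F12F6.11 (independent) had a height of 67.4, with 46.8 in replicate 1 and 21.0 in replicate 2, and Y43F8C.22, in an intron of Y43F8C.7, had 62.7, with 42.9 and 21.1. C04G6.12, antisense to the MAP kinase gene mpk-2, had 57.5, with 26.7 and 29.5. ZK484.9, antisense to haf-9, which encodes an ABC transporter, had 56.6, with 34.6 and 21.8. F12F6.11 and Y43F8C.22 stood at ranks 21 and 32 in replicate 1 and at ranks 269 and 268 in replicate 2. T06C12.16 (independent) had 55.6, with 31.3 and 27.7. C10C6.8, in an intron of the P-type ATPase gene catp-8, had 54.9, with 22.1 and 33.3, and C41C4.11 (independent) had 54.5, with 30.3 and 22.4.

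The remaining 10 thresholded genes had heights of 36.6 to 51.1. Intronic among them were Y38F2AR.14 in Y38F2AR.12 (51.1 in the thresholded list), D1046.6 in cfim-2 (42.8), which encodes a cleavage factor of messenger RNA 3′ ends, C27H6.5 in unc-41 (38.2), which encodes a stonin-like protein of synaptic vesicle recycling, and F38E11.14 in the cyclic nucleotide-gated channel gene cng-3 (36.6). Independent among them were ZK20.9 (48.4), T27A3.9, antisense to T27A3.8 (47.3), Y53F4B.48 (45.3), H09I01.2 (44.4), ZK643.9 (41.3) and Y23H5B.10 (40.9). Ranks differed widely between the replicates at H09I01.2, with a height of 35.3 at rank 61 among nuclear peaks in replicate 1 and of 10.01 at rank 4540 in replicate 2, and at F38E11.14, with 12.3 at rank 5723 and 20.6 at rank 298.

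The genes just outside the threshold had nearly the same heights as those just inside it. The lowest thresholded gene had 36.58 and the highest gene of the pooled list alone, M106.6 in an intron of the condensin subunit gene mix-1, had 36.46. M106.6 stood at rank 190 in replicate 2 with a height of 23.9 and at rank 22649 in replicate 1 with 7.98. W08G11.6, in an intron of W08G11.3, had a pooled height of 36.3, with 20.8 in replicate 1 and 21.6 in replicate 2. Y75B12B.12 (independent) had 33.4, with 16.5 and 18.1. The next were independent genes antisense to protein-coding genes, namely W01C9.6 at the globin gene glb-27 (32.3, with 21.8 and 9.13), C27H5.9 at pdl-1 (32.1, with 10.7 and 19.2) and B0334.12 at the potassium channel gene twk-5 (29.2, with 13.1 and 16.1). The other pooled-only genes had heights from 16.5 upwards. On the scales of the replicate lists the lowest thresholded genes were F38E11.14 in replicate 1, with 12.3, and H09I01.2 in replicate 2, with 10.01. W08G11.6, Y75B12B.12 and B0334.12 were above both of these values without a thresholded summit.

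The second question was whether snoRNA genes inside introns differed from those with no host. Of the 346 genes, 150 lay inside an intron of a protein-coding gene on the same strand, in 130 hosts, of which 16 held more than 1 and the fullest held 4. A further 162 were independent, 38 of them antisense to a protein-coding gene, and 34 overlapped an exon. A thresholded summit was found at 9 intronic genes (6%, interval 3.19 to 11.01) and at 16 independent genes (9.88%, interval 6.17 to 15.4). The difference was -3.88 percentage points (95% interval -10.1 to 2.35), and Fisher's exact test, two-sided and adjusted by the Benjamini-Hochberg method over the 4 lists, did not pass 0.05 (adjusted p = 0.394).

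The pooled list had summits at 23 intronic genes (15.3%) and 37 independent genes (22.8%), a difference of -7.51 points (-16.1 to 1.29, adjusted p = 0.394 in Fisher's exact test). In replicate 1 the counts were 33 (22.0%) and 45 (27.8%), a difference of -5.78 points (-15.2 to 3.87) with the same adjusted p of 0.394 in the exact test. In replicate 2 they were 45 (30.0%) and 48 (29.6%), a difference of 0.370 points (-9.68 to 10.5) with an adjusted p of 1 in the exact test. The difference passed in none of the 4 lists, and each interval includes 0. The unadjusted p of the exact test was 0.219, 0.114, 0.295 and 1 in the thresholded, pooled, replicate 1 and replicate 2 lists. The median heights of intronic and independent genes with a summit were 54.9 and 56.1 in the thresholded list, 28.9 and 32.1 in the pooled list, 11.7 and 12.9 in replicate 1, and 8.27 and 12.7 in replicate 2. The intronic median was the lower in each list, most so in replicate 2, and heights were not tested. Genes that overlapped an exon had few summits, at 1, 1, 3 and 3 of 34 genes in the same order of lists. The p-values of this report rest on genes and summits, not on replicates, and the labels call the replicates biological.

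**Figure D2:**
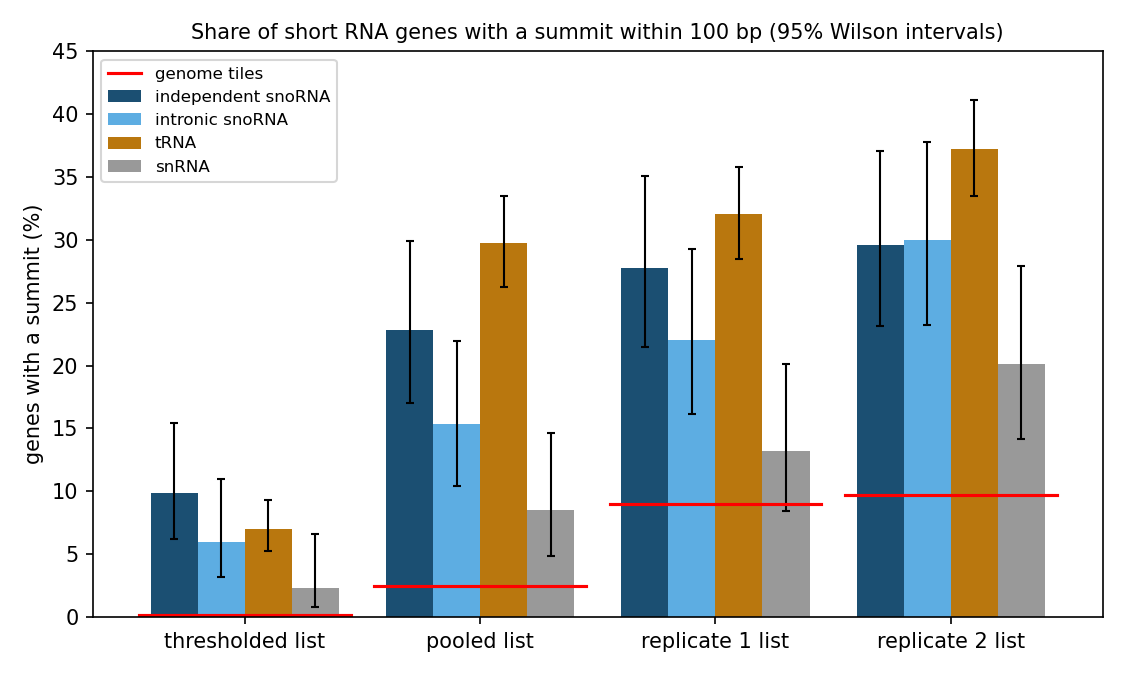
Share of genes with a summit within 100 bp (y axis, percent) in the 4 peak lists for independent and intronic snoRNA genes, tRNA genes and snRNA genes, with 95% Wilson intervals and a red line for the share of genome tiles. The intervals of independent and intronic snoRNA genes overlap in every list, and in the pooled list tRNA genes stand highest at 29.7%.

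Host genes were examined at their own 5′ ends, in a window from 1000 bp upstream to 500 bp downstream. In the thresholded list 6 of 130 hosts of intronic snoRNA genes had a summit there (4.62%), against 0.976% of 19973 protein-coding genes. Pooled summits were found at 35 hosts (26.9%), against 13.3%. In replicates 1 and 2 the hosts with a summit were 70 (53.8%) and 73 (56.2%), against 39.6% and 40% of protein-coding genes. The share of hosts was above that of all protein-coding genes in each list, and no test was applied. This window can include an intronic snoRNA gene near the 5′ end of its host, and summits counted for both were not separated. Of the thresholded snoRNA genes themselves 10 of 26 (38.5%) lay within 1000 bp of a protein-coding 5′ end, and of all snoRNA genes 143 of 346 (41.3%). The intron that held a snoRNA gene had a median length of 334 bases for thresholded genes and 419 bases for genes with no pooled summit.

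Proteins that form snoRNA particles were looked up in the same 5′ window. Among the 8 genes searched, fib-1 (fibrillarin, the methyltransferase of box C/D particles), nol-56, nol-58 and snu-13 encode box C/D proteins, and dkc-1 (the pseudouridine synthase), Y48A6B.3 (the NHP2 homologue), garr-1 and nola-3 encode box H/ACA proteins. A thresholded summit was found at 0 of 8, where 0.976% of all protein-coding genes had one, so a list of this size says little. Pooled summits were found at 5 of 8, against 13.3% of protein-coding genes, replicate 1 summits at 7 against 39.6%, and replicate 2 summits at 5 against 40%. The heights in the pooled list were 18.1 for fib-1, 18.1 for nol-58, 27.5 for snu-13, 21.0 for Y48A6B.3 and 22.8 for garr-1. All of these were below the thresholded limit, and nola-3 had no summit in any of the 4 lists.

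The third question was on which side of the gene the summit lay. Of the 25 distinct thresholded summits, 20 were upstream of the gene, 5 were in its body and 0 were downstream. Over the windows of all 346 genes the body makes up 40.7% of bases and each flank 29.7%. The thresholded genes were shorter, with a median length of 75 bases against 130 for all genes. The body is therefore as a rule a smaller part of their windows. A two-sided exact binomial test of upstream against downstream summits gave an adjusted p of 2.54e-06 over the 4 lists. The median offset of the summit from the first base of the gene was -52 bp, where negative is upstream (quartiles -60 and -27), and 18 of the 25 summits lay 25 to 75 bp upstream. The most distant was at -92, at W03C9.9, and the farthest inside a gene was at 38, in C51F7.4. At ZK994.7, ZK484.9 and Y38F2AR.14 the summit was on the first base of the gene.

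The pooled list had 47 summits upstream, 11 in the body and 2 downstream, with a median offset of -46.5 and an adjusted p of 1.74e-11 in the exact binomial test. Replicate 1 had 48 upstream, 17 in the body and 18 downstream, with a median of -30 (adjusted p = 0.000287, exact binomial test). Replicate 2 had 58, 27 and 13, with a median of -23.5 (adjusted p = 1.25e-07, exact binomial test). The upstream side led in all 4 lists, although with an extension of 50 bp the replicate 1 call did not pass (adjusted p = 0.0987, exact binomial test), and the relaxed replicate lists held more downstream summits than the pooled list. The downstream genes of the pooled list were B0334.12, with an offset of 74, and K07C10.2, with an offset of 163.

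Both intronic and independent genes had most of their summits upstream in the thresholded and pooled lists. In the thresholded list, 6 of 8 intronic summits and 14 of 16 independent summits were upstream, with median offsets of -47.5 and -54.5. Of the 22 pooled intronic summits, 19 were upstream, 3 were in the body and 0 were downstream. The independent genes had 28 upstream, 7 in the body and 2 downstream. The median offsets of the classes stood further apart in the replicate lists. In replicate 1, 19 of 33 intronic summits (median offset -15) and 29 of 47 independent summits (median offset -40) were upstream. In replicate 2, 23 of 45 intronic summits (median offset -1) and 35 of 50 independent summits (median offset -39.5) were upstream. The difference between the classes in side was not tested. The replicates placed the summits of the thresholded genes close together, with a median distance of 18 bp between the replicate 1 and replicate 2 summits of a gene, and 23 of 25 lay within 50 bp of each other. For 20 of these 25 genes both replicate summits were upstream. The thresholded list was selected for agreement between the replicates, which favours nearby summits. Over all 53 genes in both replicate lists the median distance was 35 bp, 38 were within 50 bp and 30 had both summits upstream. Peak width was 336 bp at 24 of the 25 thresholded snoRNA summits, and the summit mostly sits at the midpoint of such a fixed interval, which limits how finely a position can be read.

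**Figure D3:**
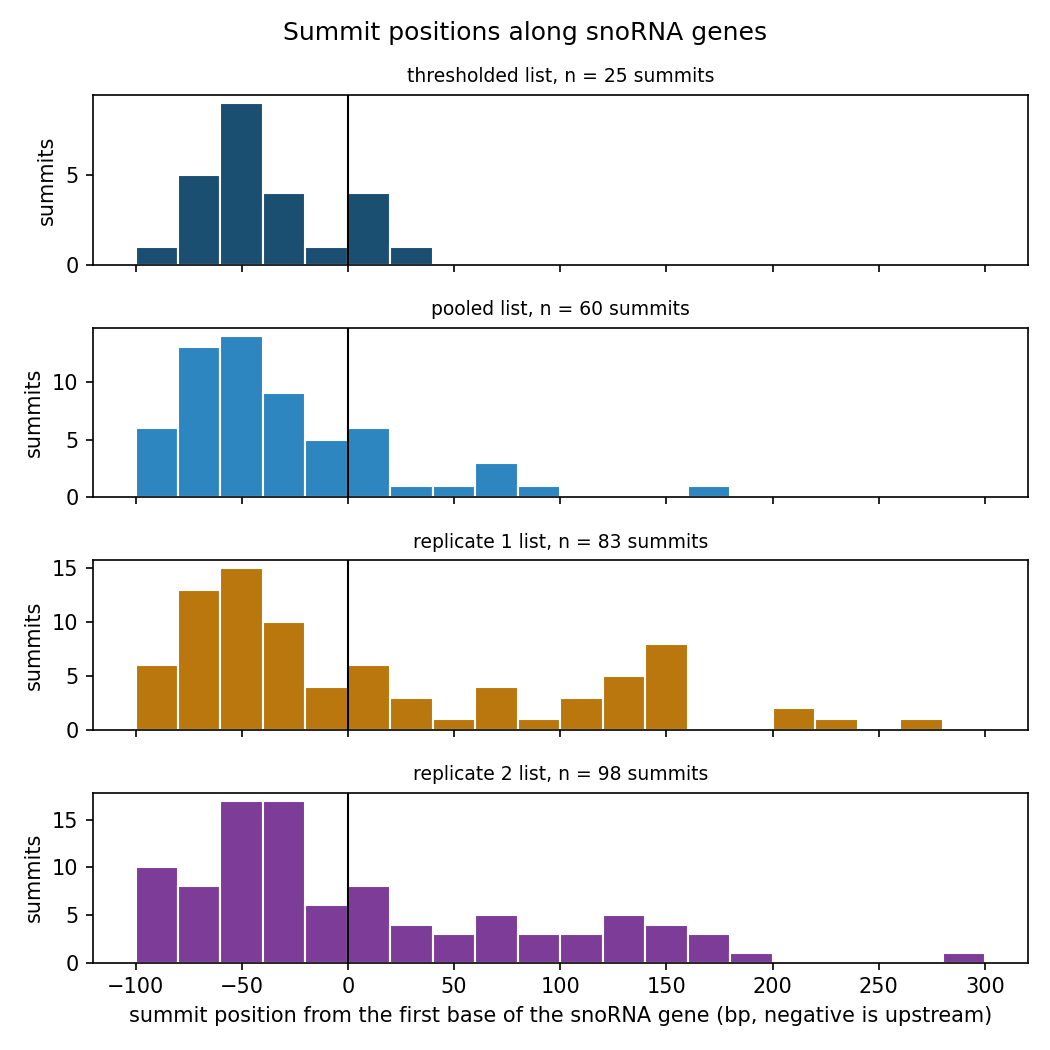
Number of summits (y axis) in bins of 20 bp by position from the first base of the snoRNA gene (x axis, bp, negative is upstream) in the 4 lists. The thresholded summits gather around a median of -52 with 0 downstream of the gene, and the replicate lists hold 18 and 13 downstream summits.

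The upstream position was compared with that at tRNA genes, a comparison chosen after the snoRNA summits were seen. In the thresholded list 80% of snoRNA summits but 32.5% of tRNA summits (13 of 40) were upstream of the gene, a difference of 47.5 percentage points (22.9 to 64.2, adjusted p = 0.000289 in Fisher's exact test over 4 lists). The pooled shares were 78.3% and 24.9% (adjusted p = 1.36e-12, Fisher's exact test). The shares were 57.8% and 31.8% in replicate 1 and 59.2% and 36.1% in replicate 2, with adjusted p of 0.000171 and 0.000196 in the exact test. The median thresholded summit of tRNA genes was 15.5 bp inside the gene. Summits at snoRNA genes were therefore more often upstream in all 4 lists.

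Counted per gene, the difference between snoRNA and tRNA genes did not pass the test in the thresholded list. There, 43 of 612 nuclear tRNA genes had a summit (7.03%), a difference of 0.488 points (-2.79 to 4.20) with an adjusted p of 0.796 in Fisher's exact test over 8 comparisons. The pooled snoRNA share was lower than the tRNA share, 17.6% against 29.7%, a difference of -12.1 points (-17.3 to -6.52, adjusted p = 0.000231, Fisher's exact test). It was lower in replicate 1 (23.4% against 32.0%, adjusted p = 0.0129) and in replicate 2 (27.7% against 37.3%, adjusted p = 0.0114) by the same exact test. The median thresholded height was 56.1 at snoRNA genes and 47.4 at tRNA genes. Window length was not matched, since the median gene length was 130 bases for snoRNA genes and 72 bases for tRNA genes.

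Genes for spliceosomal and spliced-leader RNAs (snRNA genes) had summits less often in 2 of the lists. Their median length was 109 bases, so their windows too were as a rule shorter than those of snoRNA genes. Pooled summits were found at 8.53% of 129 snRNA genes against 17.6% of snoRNA genes (adjusted p = 0.0243, Fisher's exact test), and in replicate 1 the shares were 13.2% and 23.4% (adjusted p = 0.0243, exact test). In the thresholded list 3 snRNA genes had one (2.33%), which did not pass (adjusted p = 0.0664, exact test), nor did replicate 2 with 20.2% (adjusted p = 0.113, exact test). Both passing calls were lost with an extension of 50 bp (adjusted p = 0.198 in both lists, exact test), and the thresholded difference passed when the strongest peaks of replicate 2 stood in for that list (adjusted p = 0.0203, exact test).

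The fourth question was whether chromosomes differed, and no chromosome passed the test. In the thresholded list summits were found at 5 of 74 snoRNA genes on chromosome I, 5 of 71 on II, 1 of 54 on III, 7 of 59 on IV (11.9%), 8 of 55 on V (14.5%) and 0 of 33 on X. In Fisher's exact test of each chromosome against the other 5, V had an unadjusted p of 0.0465 and an adjusted p of 0.264 over the 6 chromosomes. A count of 0 on X allows a share of up to 9.09%, which includes the 8.31% of the other chromosomes together, so a difference was not detectable with this number of genes. X carried 27.4% of all nuclear thresholded peaks. In the pooled list the counts were 11 on I, 17 on II, 6 on III, 10 on IV, 15 on V (27.3%) and 2 on X (6.06%), with a lowest adjusted p of 0.239 in the exact test. The X genes of the pooled list were C53B7.8, with a height of 23.9, and D2021.6, with a height of 22.4, both independent. Replicate 1 had a summit at 3 genes of X (9.09%) and replicate 2 at 4 (12.1%), the lowest share of any chromosome in both.

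Thresholded genes were short. The median gene length was 75 bases for the thresholded genes, 126 bases for the pooled-only genes and 132 bases for genes without a pooled summit. Of 93 genes under 100 bases, 18 had a thresholded summit (19.4%) and 30 a pooled one (32.3%). Of 253 genes of 100 bases or more, the counts were 8 (3.16%) and 31 (12.3%). The limit of 100 bases was chosen after the data were seen. Box C/D snoRNAs are as a rule shorter than box H/ACA snoRNAs, but the annotation does not name the kind of each gene. The C box core TGATGA near the start was found in 5 of 26 thresholded genes and 21 of all 346, and the D box CTGA near the end in 11 of 26 and 85 of 346. ACA within 10 bases of the end was found in 7 of 26 and 102 of 346. The C and D motifs were searched within 25 bases of the start or end, all on the sense strand, and matches may overlap. Too few genes held the exact C box core for a gene's kind to be assigned by it.

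The upstream stretch held tRNA-type box cores more often in genes with a summit. The B box core was searched on the sense strand from starts in the 100 bases before the gene, so a match could run into the gene. An exact match was found at 14 of 26 thresholded genes (53.8%), 11 of 35 pooled-only genes (31.4%) and 13 of 285 genes without a pooled summit (4.56%). Of all 100-base tiles of the nuclear genome, 1.76% held it on the plus strand. The A box core, chosen after the sequences were seen, was found at 8 thresholded genes (30.8%), 10 pooled-only genes (28.6%) and 11 of the 285 (3.86%), against 1.48% of tiles. These matches are descriptions of letters and not of binding, and no test was applied. The GC content of the upstream stretch was not matched between these groups of genes or with the tiles. On the antisense strand, where a match had to lie wholly before the gene, 0 of the 61 genes with a pooled summit held either core in this stretch. Such matches were rare in genes without a pooled summit as well, with the A core at 9 of 285 (3.16%) and the B core at 3 of 285 (1.05%).

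One or the other core was present at 16 of 26 thresholded genes (61.5%), 16 of 35 pooled-only genes (45.7%) and 21 of 285 genes without a pooled summit (7.37%), against 3.19% of tiles. Read the other way, 53 of the 346 genes held a core, and 16 of them had a thresholded summit (30.2%) and 32 a pooled one (60.4%). Of the 293 genes without a core, 10 had a thresholded summit (3.41%) and 29 a pooled one (9.90%). The replicates showed the same order separately, with 30 (56.6%) against 51 (17.4%) in replicate 1 and 31 (58.5%) against 65 (22.2%) in replicate 2. Genes with a core were therefore more often in every list. The A core was chosen after sequences of some of these genes were seen, so its part in this difference is not separate support. For the exact B core alone, 14 of 38 genes (36.8%) had a thresholded summit, against 12 of 308 genes without it (3.90%). Of the 219 genes in no list, 18 held a core too (8.22%), R166.7 among them. Thresholded genes with neither core upstream included C51F7.4 of the highest pair, and ZK994.7 and ZK265.10, the next highest after that pair. The other gene of the pair, C51F7.3, held the exact B core upstream, and its match GTTCAAACC begins beside the shared summit. The peak of this pair therefore counts both with and without a core.

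**Figure D4:**
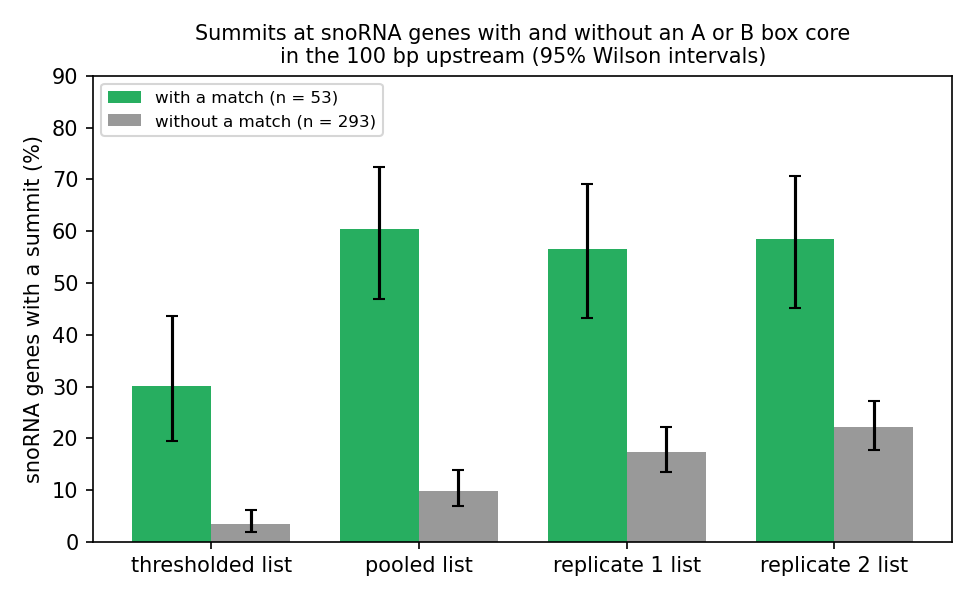
Share of snoRNA genes with a summit (y axis, percent, 95% Wilson intervals) in each list, for the 53 genes with an A or B box core in the 100 bp upstream and the 293 genes without. The shares with a core are 30.2%, 60.4%, 56.6% and 58.5%, each above the share without. The A core was chosen after sequences of some of these genes were seen.

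Both intronic and independent genes held the cores. Among genes with a pooled summit, 15 of 23 intronic genes (65.2%) and 17 of 37 independent genes (45.9%) had an A or B box core upstream. The spacing of the cores varied little. An A box core followed by a B box core with at most 1 mismatch was found at 8 of 26 thresholded genes, 9 of 35 pooled-only genes and 6 of 285 others, against 0.256% of tiles. The distance from the first base of the A core to that of the B core had a median of 44 bases over the 17 genes (range 43 to 52). In the thresholded genes the A core began at a median position of -56.5 from the first base of the gene (8 genes) and the exact B core at -12.5 (14 genes).

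The median summit lay between the start of the A core and that of the B core. For thresholded snoRNA genes the position of the summit minus that of the A core had a median of 7.5 bases, and minus that of the B core -32.5 bases. Of 612 tRNA genes, 587 (95.9%) held the exact B core and 108 (17.6%) this A core inside the gene. Over thresholded tRNA genes the same medians were 8 bases (9 of 43 genes, A core) and -41.5 bases (42 of 43, B core). Pooled medians were 23 and -18 at tRNA genes (39 and 175 genes) and 16 and -27 at snoRNA genes (18 and 25 genes). No thresholded or pooled snoRNA gene was within 500 bp of an annotated tRNA gene (2 of all 346 were), and the nearest for a thresholded gene was 943 bp away. A run of 4 T, TTTT, followed the end of the gene within 25 bases at 23 of 26 thresholded genes (88.5%), 23 of 35 pooled-only genes (65.7%) and 118 of 285 others (41.4%).

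**Figure D5:**
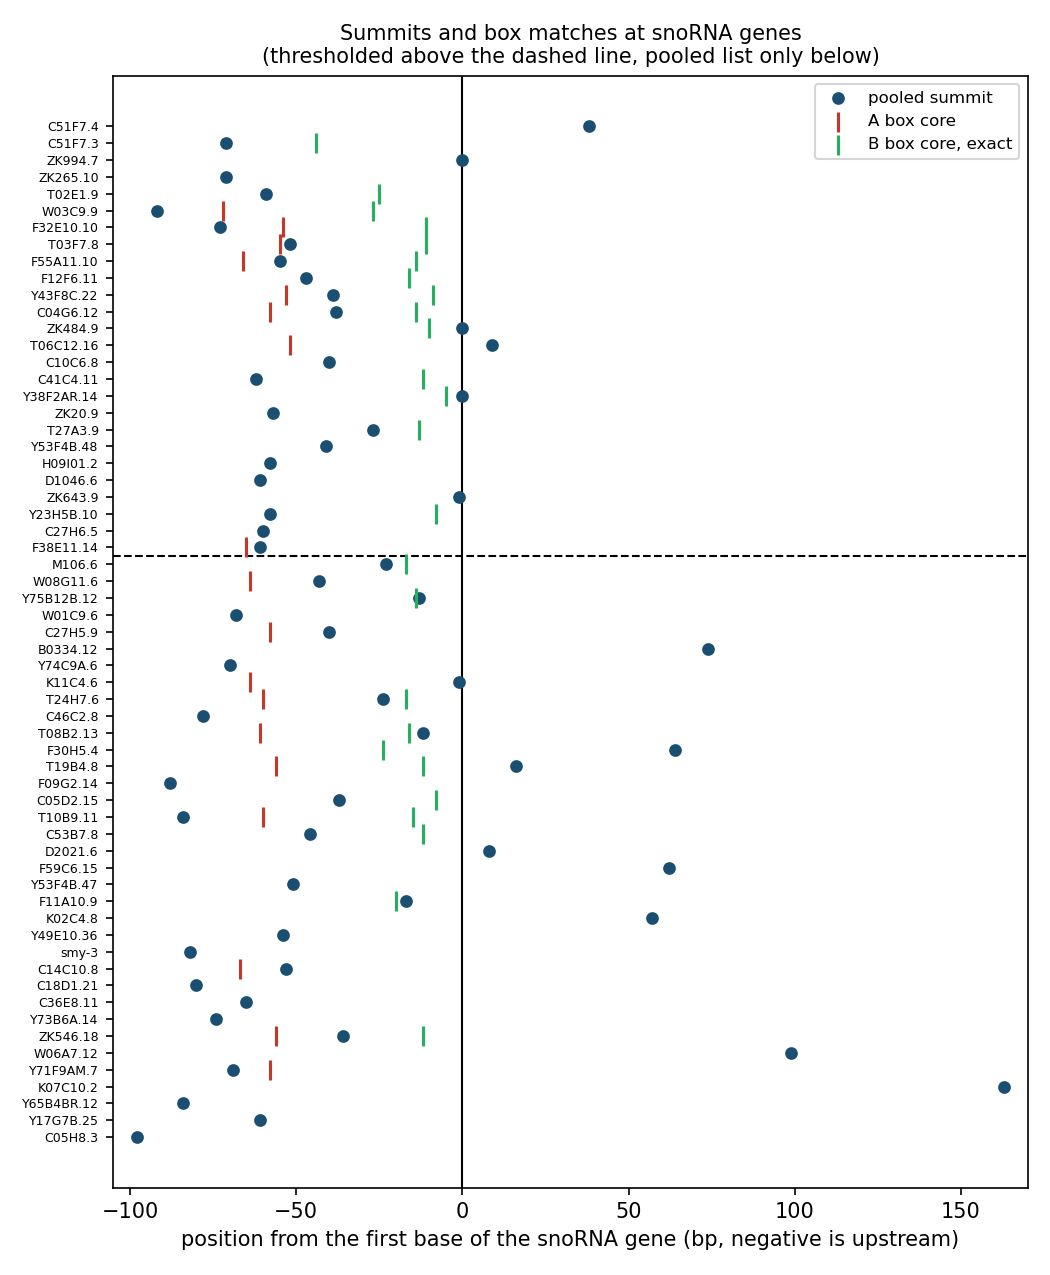
Pooled summits (circles) and the A box core (red) and exact B box core (green) of the snoRNA genes in the pooled list, by position from the first base of the gene (x axis, bp, negative is upstream), with the thresholded genes above the dashed line, each set in order of height. The A cores sit at a median of -59 (18 genes) and the B cores at -14 (25 genes), and 47 of the 60 distinct summits lie upstream of the gene.

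The forkhead core GTAAACA, the usual binding word of the forkhead family, was searched on both strands of the whole window. It was found at 0 of 26 thresholded genes, 2 of 35 pooled-only genes and 10 of 285 others, against 3.71% of tiles of 330 bp. No match says only that these letters are not in the window. The exact B core in the whole window on the sense strand was found at 15 of 26, 11 of 35 and 31 of 285 genes, against 5.99% of tiles on the plus strand.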

How the data were processed

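The authors, per their deposited file lists, called relaxed peaks (peaks and background) on the ce11 build for each replicate and for the pool, and derived the thresholded list from them. Each deposited peak carries a signal, its height as the authors' caller gave it. The sources used here name no aligner, caller or threshold, read depth is unknown, and the ce10 lists were not used. A summit is the peak start plus the deposited offset. Genes came from Ensembl release 115 and sequence from the RefSeq genome of the same assembly. All 346 RefSeq snoRNA genes had the same positions.

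A gene was intronic when it lay fully inside an intron of a protein-coding gene of its strand, and independent when outside every such gene. A summit in several windows counted once for the side, at the nearest gene middle. Shares have 95% Wilson intervals, and differences between shares Newcombe intervals. Fisher's exact tests and exact binomial tests were two-sided, adjusted by the Benjamini-Hochberg method within each family, with a threshold of 0.05. They were checked on simulated data. Motif tiles of 100 and 330 bases were read on the plus strand, except the forkhead core.

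Named genes are all those in the thresholded list, the 6 highest of the pooled list only, and any gene above the lowest thresholded height in both replicate lists without a thresholded summit. That last part was not used, because the height is on the scale of the pooled list. Sequences are those of the 5 highest thresholded genes and the highest pooled-only gene outside chromosome I, plus those chosen later. The members and lists were chosen with earlier results of these data known. The comparison of sides with tRNA genes, the A box core, the length limit and the comparisons by core were added after values were seen. The H/ACA protein gene garr-1 was found by its sequence name, since gar-1 is another gene. Tests ran in scipy 1.17.1 under Python 3.11.15, tables in pandas 2.3.3 and numpy 2.4.6, and plots in matplotlib 3.10.9.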

Additional observations from a re-analysis of the deposited data

How the results depend on the processing

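Of 146 recomputed results, 124 counted as kept. Tested results had to keep their direction and their side of the threshold, and untested values had to stay within a fixed ratio of the main value. The share of snoRNA genes with a summit moved with the extension. With 50 bp it was 3.47%, 8.67%, 13.6% and 18.2% in the thresholded, pooled, replicate 1 and replicate 2 lists, and with no extension 1.45%, 3.18%, 4.91% and 7.80%. Without replicate 1 or without replicate 2 the thresholded share ran from 6.36% to 7.51%. The difference between intronic and independent genes changed sign in the thresholded list with no extension (0.0988 percentage points, adjusted p = 1, Fisher's exact test) and in replicate 1 among genes with no protein-coding 5′ end within 1000 bp (1.84 points, adjusted p = 1, exact test). The upstream side no longer passed in replicate 1 with 50 bp, where the upstream share of flank summits was 16.7 points above 50 (adjusted p = 0.0987, exact binomial test). Without replicate 1 or replicate 2 it was 50 points above in the thresholded list. The thresholded difference from tRNA genes turned to -2.74 points with 50 bp and -2.15 with no extension, and did not pass in either. The difference from snRNA genes passed in the thresholded list without replicate 1 and not without replicate 2 (range 4.03 to 5.96 points), and with overlap of the peak interval (5.77 points, adjusted p = 0.0346, exact test). It no longer passed in the pooled list with 50 bp (4.02 points), no extension (0.854) or no nearby protein-coding 5′ end (9.15), nor in replicate 1 with 50 bp (5.06), 250 bp (9.60), no extension (1.04) or interval overlap (9.78). The cause of these changes was not tested. No chromosome passed under any alternative run. Joined windows, no extension and interval overlap were not run for the side of the summit. No paired analysis was possible because there is 1 group.

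There were 2 replicates, and no library of an untagged strain was analysed here. The 9 genes whose windows overlap another gene's window are not independent of each other. The fixed peak width limits how finely a summit position can be read. Read depth is unknown, so counts in the replicate lists were not compared with each other.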
